A study of Mus musculus with 9 samples.

Results

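The D and E cyclins with their kinases drive cells from the first gap phase (G1) into DNA synthesis, and 9 of their genes were followed through muscle differentiation: the D cyclins Ccnd1, Ccnd2 and Ccnd3, the E cyclins Ccne1 and Ccne2, the kinases Cdk2, Cdk4 and Cdk6, and the phosphatase Cdc25a. They were taken by exact gene symbol in the platform annotation, with the highest-mean probe set standing for a gene. Each of the 9 had 1 probe set of its own and none shared with another gene, among 19938 genes with a probe set of their own on the array. All 9 passed the filter on low values, as did 16582 genes in all.

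The arrays compared mouse primary myoblasts with the myotubes they form, from the skeletal muscle of Balb/c mice of wild type genotype. Cycling myoblasts at 0 days, myotubes after 2 days and myotubes after 5 days in differentiating medium had 3 arrays each. The growth protocol gives F10 with 20% FBS and 4 ng/ml bFGF for all 9 samples, so a change of medium rests on the sample titles. The labels do not say whether the replicates were separate cultures or animals, and p-values may therefore measure technical spread alone. In these bulk samples fewer cells of a type and less RNA per cell cannot be told apart.

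D cyclins are made in response to mitogens and activate Cdk4 and Cdk6, which start the phosphorylation of the retinoblastoma protein. E cyclins then activate Cdk2, which completes it, releases E2F transcription factors and starts S phase. Cdc25a removes the inhibitory phosphates from Cdk2, and CDK inhibitors block the complexes. Myoblasts leave the cell cycle for good before they fuse. Cyclin D1 is known to block the activity of MyoD, the myogenic transcription factor, whereas cyclin D3 is known to accumulate in differentiating muscle cells.

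Levels are log2 RMA values, given as deposited unless stated. The deposited values had been normalized apart for each time point, so the normalization set and the time point cannot be told apart, and arrays of a time point often carry the same value for a probe set. Each change therefore carries a pair of log2 fold changes (log2FC), the first as deposited and the second on a common scale, made by quantile normalization over all 9 arrays. A gene is called here, and said to have risen or fallen, where the change was at least 2-fold in the same direction on both scales with a Benjamini-Hochberg adjusted limma p under 0.05 on each. The p alone separates little, since 93.3% of all tested genes passed it as deposited at day 2 against cycling myoblasts, 95.2% at day 5 against cycling myoblasts and 94.0% at day 5 against day 2. The 3 arrays of the compared time points did not overlap for 95.8%, 96.5% and 97.1% of genes, and for 9, 9 and 8 of the 9 genes here. An adjusted p under 0.05 with the same direction on both scales, at any size, was reached by 80.2%, 67.8% and 56.8% of genes and by 9, 8 and 6 of the 9. Size on both scales therefore carries the comparisons.

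By day 2, 7 of the 9 genes had fallen and 0 had risen by limma, whereas 8.41% of all tested genes fell and 6.04% rose. The 7 were Ccnd1, Ccnd2, Ccne1, Ccne2, Cdk4, Cdk6 and Cdc25a. Ccnd3 and Cdk2 were instead higher by less than 2-fold, the 2 genes of the set that were higher on both scales at an unadjusted p under 0.05. By day 5, 6 of 9 were called lower than in cycling myoblasts and 0 higher, with 0 higher at an unadjusted p under 0.05 on both scales too, against 12.3% of genes lower and 4.44% higher. Between day 2 and day 5, 2 of 9 fell, Ccnd1 and Cdk2, and 0 rose (0 at an unadjusted p under 0.05 on both scales), against 3.67% and 0.766%. The median log2FC of the 9 genes was -1.59 and -1.46 at day 2 against -0.01 and 0.09 over all genes. At day 5 it was -2.90 and -2.14 against -0.37 and 0.17. Scaling moves the background: at day 5 against cycling myoblasts 29.2% of all genes were lower and 4.44% higher by at least 2-fold in the deposited values alone, against 12.3% and 11.8% on the common scale alone. The corresponding shares were 15.4% and 0.766%, against 3.67% and 2.78%, at day 5 against day 2, and 12.0% and 6.39%, against 8.45% and 7.73%, at day 2. The comparisons share arrays, so they are not independent of each other.

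**Figure D1:**
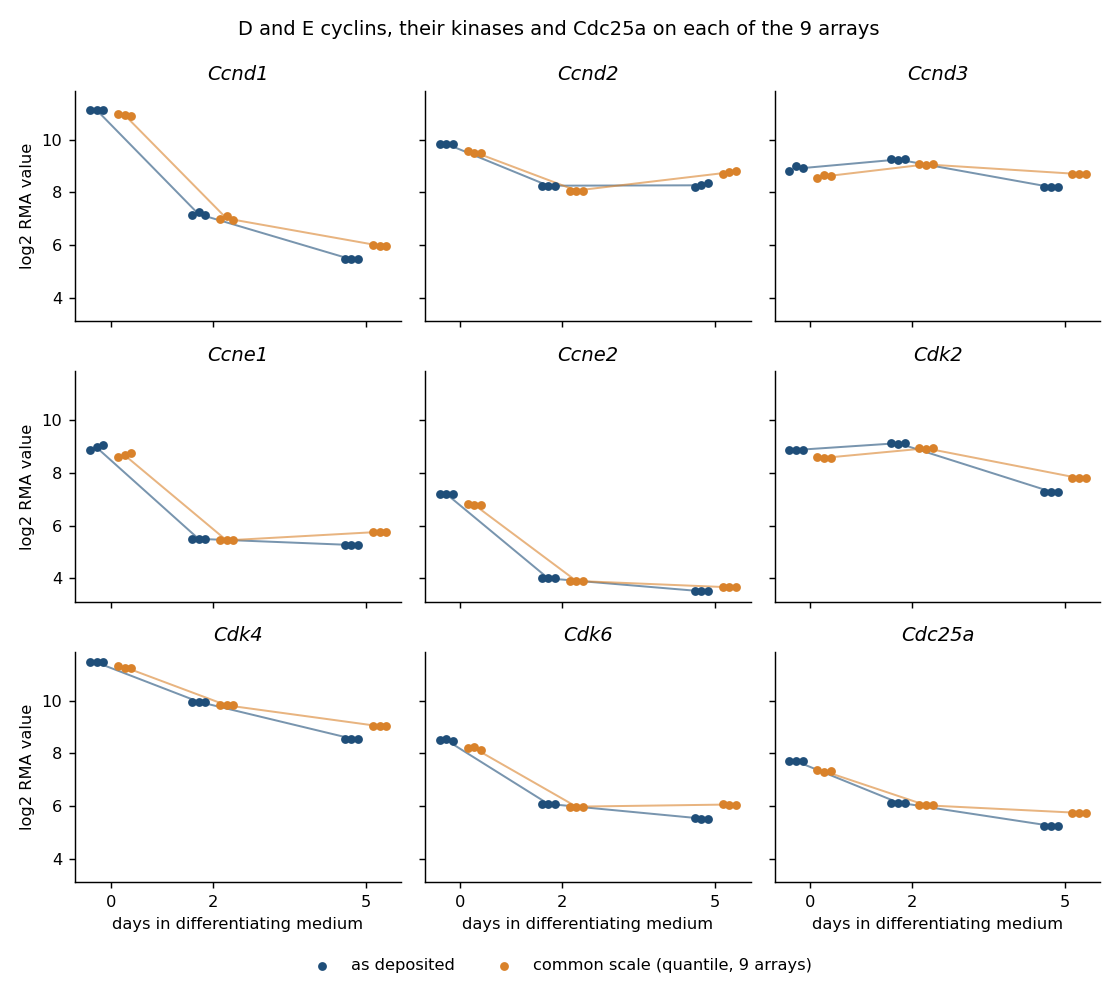
Log2 RMA value of each gene (y axis) against days in differentiating medium (x axis), with a point for each array and lines joining the means of 3, as deposited (blue) and on the common scale (orange). Ccnd1 drops at both steps, the E cyclins and Cdk6 drop by day 2, and Ccnd3 lies between 8.19 and 9.26 on all 9 arrays as deposited.

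Among the D cyclins, the regulatory subunits of Cdk4 and Cdk6, the genes parted. Ccnd1 (probe set 10569646) was at 11.13 on all 3 arrays of cycling myoblasts, at 7.14, 7.26 and 7.13 at day 2 and at 5.45 on all 3 arrays at day 5. The 3 time points did not overlap, and each later one was lower. It fell by day 2 (log2FC -3.96 and -3.94), which is 15.5-fold and 15.3-fold, and by day 5 it was 51.3-fold and 31.4-fold lower (log2FC -5.68 and -4.97). Its SDs over 3 arrays were 0.00052, 0.076 and 0. Ranked within its array, Ccnd1 stood above about 99.04% of probe sets on the middle cycling array, above 81.8% to 83.0% at day 2 and above 72.3% to 72.4% at day 5. The further fall from day 2 to day 5 (log2FC -1.72 and -1.03) lay close to the 2-fold limit on the common scale, and without replicate 2 of day 2 it was -1.68 and -0.99 and no longer called.

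Ccnd2 (probe set 10548105), a D cyclin also made by dividing cells, stood at 9.85 on all 3 cycling arrays. It was at 8.26 on all 3 arrays at day 2, and at 8.20, 8.27 and 8.34 at day 5. Cycling myoblasts were higher than both later times, whose arrays overlapped as deposited. The fall at day 2 was 3.01-fold and 2.75-fold (log2FC -1.59 and -1.46). At day 5 the difference from cycling myoblasts was log2FC -1.58 as deposited but -0.77 on the common scale, so the gene was not called there. From day 2 to day 5 log2FC was 0.02 as deposited (limma adjusted p = 0.661) and 0.69 on the common scale.

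Ccnd3 (probe set 10445688) followed neither. Its values were 8.80, 8.99 and 8.92 in cycling myoblasts, 9.26, 9.23 and 9.26 at day 2, and 8.19, 8.19 and 8.22 at day 5. Day 2 was highest without overlap, by log2FC 0.35 and 0.46, a size below 2-fold. Such a small difference is common among all genes, as the share of 80.2% for any size shows. At day 5 Ccnd3 was lower than in cycling myoblasts as deposited (log2FC -0.70) and slightly higher on the common scale (log2FC 0.09, limma adjusted p = 0.0315). Its place within the array stayed between 92.7% and 95.1% on all 9 arrays.

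The difference between genes on the same array does not move with a shift that is common to all probe sets of the array. For this reason the D cyclins were also compared in pairs, as a description, since an exact permutation test of 3 arrays against 3 cannot give a two-sided p below 0.1. On the log2 scale Ccnd3 minus Ccnd1 was higher by 4.31 as deposited and 4.40 on the common scale at day 2 than in cycling myoblasts, and by 4.98 and 5.06 at day 5. Ccnd3 minus Ccnd2 was higher by 1.94 and 1.92 at day 2 and by 0.88 and 0.86 at day 5. Ccnd1 minus Ccnd2 changed by -2.37 and -2.48 to day 2 and by -4.11 and -4.20 to day 5. The largest SD of these differences over 3 arrays was 0.11. The D cyclin transcripts thus changed unequally on both scales, which does not say which of a pair changed. In all, 6 pairs were compared.

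**Figure D2:**
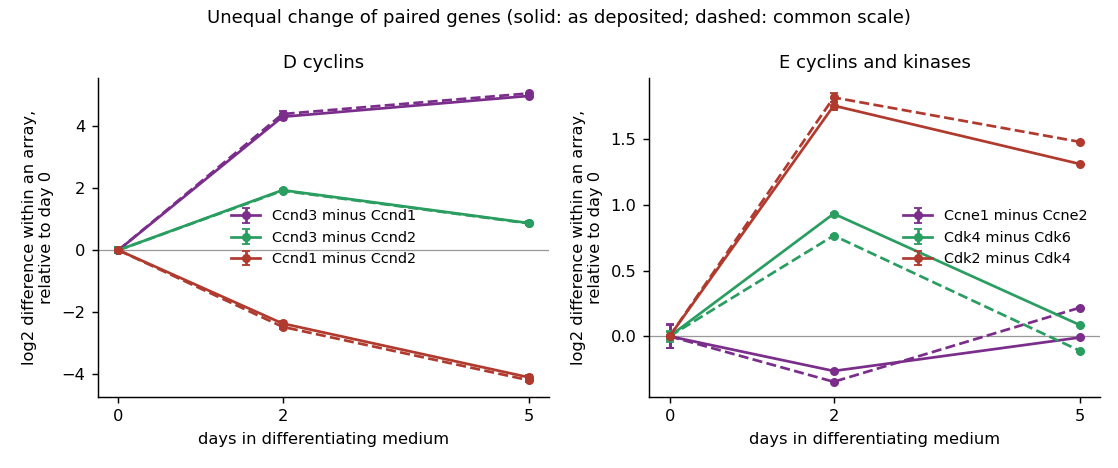
Change since day 0 of the log2 difference between paired genes on the same array (y axis) against days in differentiating medium (x axis), means of 3 arrays with SD bars, solid as deposited and dashed on the common scale. Ccnd3 parts from Ccnd1 by 4.31 at day 2 and 4.98 at day 5 as deposited, while Ccne1 and Ccne2 stay within 0.35 of their starting difference on either scale.

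Both E cyclins, the activators of Cdk2 at the start of S phase, fell by day 2 to levels that changed little afterwards. Ccne1 (probe set 10562563) was at 8.87, 8.98 and 9.06 in cycling myoblasts, at 5.49 on all 3 arrays at day 2 and at 5.26 on all 3 at day 5. The fall at day 2 was 11.1-fold and 9.46-fold (log2FC -3.48 and -3.24), and at day 5 log2FC was -3.71 and -2.92. Ccne2 (probe set 10503264) was at 7.20 on all 3 cycling arrays, at 3.99 on all 3 at day 2 and at 3.50 on all 3 at day 5. Its log2FC was -3.21 and -2.90 at day 2 and -3.70 and -3.14 at day 5. In myotubes Ccne2 lay under the array medians of 4.26 and 3.99, though above the filter value. Background was not measured, so levels this low have an unknown floor.

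From day 2 to day 5 neither E cyclin was called. Ccne1 was lower as deposited (log2FC -0.23) and higher on the common scale (log2FC 0.32), and Ccne2 was lower on both (log2FC -0.49 and -0.24). Ccne1 minus Ccne2 on the same array changed by -0.26 and -0.35 to day 2 and by -0.01 and 0.22 to day 5. Counted from cycling myoblasts, the difference thus moved far less than that of any pair of D cyclins. From day 2 to day 5 it moved by 0.25 and 0.56. The smallest such move of a D cyclin pair was 0.67 on both scales, for Ccnd3 minus Ccnd1.

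Of the kinases, Cdk4 and Cdk6, the partners of the D cyclins, fell, and Cdk2, the partner of the E cyclins, did not fall by day 2. Cdk4 (probe set 10366814) was at 11.46 on all 3 cycling arrays, at 9.97 on all 3 at day 2 and at 8.57 on all 3 at day 5, with no overlap between times. It was 2.82-fold and 2.74-fold lower at day 2 (log2FC -1.5 and -1.45) and 7.44-fold and 4.75-fold lower at day 5 (log2FC -2.90 and -2.25). The step from day 2 to day 5 was log2FC -1.40 as deposited and -0.80 on the common scale, which was not called.

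Cdk6 (probe set 10519324) was at 8.49, 8.55 and 8.49 in cycling myoblasts, at 6.08 on all 3 arrays at day 2, and at 5.54, 5.52 and 5.52 at day 5. It was 5.38-fold and 4.65-fold lower at day 2 (log2FC -2.43 and -2.22), with log2FC -2.98 and -2.14 at day 5. Between the later times its direction depended on the scale (log2FC -0.55 and 0.08). Cdk4 minus Cdk6 was higher by 0.93 and 0.77 at day 2 and back near its start at day 5 (0.09 and -0.11). The gap between both kinases thus widened by day 2 and was nearly that of cycling myoblasts at day 5.

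Cdk2 (probe set 10373530) was at 8.86, 8.88 and 8.88 in cycling myoblasts, at 9.15, 9.09 and 9.15 at day 2, and at 7.29 on all 3 arrays at day 5. Day 2 was above cycling myoblasts by log2FC 0.26 and 0.36, less than 2-fold. It then fell from day 2 to day 5 (log2FC -1.84 and -1.13), the only kinase called in that comparison. Against cycling myoblasts day 5 was lower by log2FC -1.59 as deposited and -0.77 on the common scale, and was not called. Cdk2 minus Cdk4 was higher by 1.75 and 1.82 at day 2 and by 1.31 and 1.48 at day 5.

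Cdc25a (probe set 10589420), the phosphatase that activates Cdk2, was at 7.71 on all 3 cycling arrays, at 6.13 on all 3 at day 2 and at 5.25 on all 3 at day 5. It was 2.97-fold and 2.46-fold lower at day 2 (log2FC -1.57 and -1.30), and log2FC was -2.46 and -1.59 at day 5. The later step was below 2-fold (log2FC -0.89 and -0.29). Over the 9 genes and 3 comparisons the largest standard error was 0.047. For the called changes the largest limma adjusted p was 4.1e-09 in the deposited values and 3.8e-08 after quantile normalization; these rest on a replicate spread that identical values make small.

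**Figure D3:**
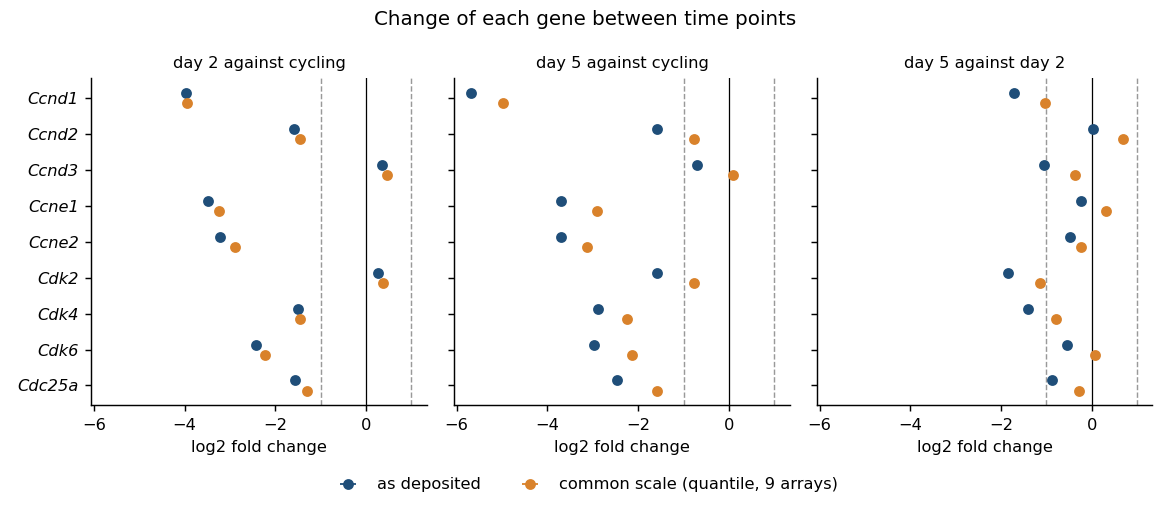
Log2 fold change (x axis) of each gene (y axis) in 3 comparisons, as deposited (blue) and on the common scale (orange), with standard error bars that are mostly smaller than the points and dashed lines at 2-fold. At day 2, 7 genes lie beyond the 2-fold line to the left on both scales and Ccnd3 and Cdk2 lie to the right of 0.

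The promoters of the kinases and of Cdc25a are shown because Cdk4, Cdk6 and Cdc25a fell together by day 2 while Cdk2 did not. They are RefSeq windows of assembly GRCm38.p6, the 250 bases before the annotated start on the strand of the gene. Capitals mark matches to the E-box CACGTG, the letters bound by Myc with Max, and to the E2F letters TTTGGCGC, TTTCCCGC, TTTGCCGC or TTTCGCGC on either strand. The windows are chr10:127063285-127063534 for Cdk4 and chr5:3343643-3343892 for Cdk6, both on the plus strand. Those of Cdc25a and Cdk2 are chr9:109875329-109875578 on the plus strand and chr10:128705052-128705301 on the minus strand.
Cdk4: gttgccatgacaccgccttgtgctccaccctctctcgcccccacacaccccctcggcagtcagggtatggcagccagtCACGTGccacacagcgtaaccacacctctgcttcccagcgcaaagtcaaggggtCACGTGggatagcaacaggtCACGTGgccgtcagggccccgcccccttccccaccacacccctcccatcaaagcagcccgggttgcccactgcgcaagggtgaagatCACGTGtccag
Cdk6: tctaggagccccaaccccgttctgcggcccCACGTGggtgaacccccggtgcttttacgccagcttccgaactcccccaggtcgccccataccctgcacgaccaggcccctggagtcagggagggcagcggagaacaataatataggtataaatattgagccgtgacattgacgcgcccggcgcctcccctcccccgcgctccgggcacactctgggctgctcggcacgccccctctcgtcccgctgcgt
Cdc25a: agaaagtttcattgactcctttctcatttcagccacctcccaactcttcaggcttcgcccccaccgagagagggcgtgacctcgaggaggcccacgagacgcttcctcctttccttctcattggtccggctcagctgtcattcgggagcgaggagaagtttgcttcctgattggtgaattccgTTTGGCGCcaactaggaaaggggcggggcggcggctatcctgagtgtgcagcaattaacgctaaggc
Cdk2: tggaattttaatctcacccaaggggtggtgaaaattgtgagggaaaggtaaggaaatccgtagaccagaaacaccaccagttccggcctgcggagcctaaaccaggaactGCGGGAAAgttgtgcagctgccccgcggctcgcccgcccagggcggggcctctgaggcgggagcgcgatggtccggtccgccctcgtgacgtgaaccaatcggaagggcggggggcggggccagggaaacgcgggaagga

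The Cdk4 window held 4 E-boxes, which began 172, 118, 98 and 11 bases before the start. Of 32851 promoter windows of this length 6.02% held an E-box and 0.0213% held 4 or more. Cdk6 held 1 E-box, which began 220 bases before the start, and no E2F match. Cdc25a held the E2F letters TTTGGCGC from 67 bases before the start, and Cdk2 held GCGGGAAA, the reverse complement of TTTCCCGC, from 140 bases before it. Such letters were in 1.86% of all windows. Of these, Cdc25a fell by day 2 and Cdk2 only from day 2 to day 5. Whether E-box or E2F letters bear on any of these changes was not tested. The windows of Ccne1 and of both annotated starts of Ccnd3 held neither E-box nor E2F letters. They held 4, 2 and 1 matches to the GC-box GGGCGG on either strand, counting overlapping matches once. The windows of Cdk2, Cdk4, Cdc25a and Cdk6 held 5, 1, 1 and 0. Of all windows 32.7% held at least 1 GC-box and 3.34% held 4 or more. No GC-box match in these windows overlapped an E2F match. Windows were matched by symbol for 6 of the 9 genes, and Ccnd1, Ccnd2 and Ccne2 were not matched.

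Around these 9 genes, 9 lists of genes that act on them or with them held 79 genes, of which 76 were tested. Of the 76, 32 fell and 3 rose by day 2, and 30 fell and 1 rose by day 5 against cycling myoblasts. From day 2 to day 5, 5 fell and 0 rose by limma. These shares compare with 8.41%, 12.3% and 3.67% of all genes that fell and 6.04%, 4.44% and 0.766% that rose. The same shares apply to each list below, and a single call in so small a list says little.

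The genes of S-phase entry, which the E2F factors are known to switch on, fell in 9 of 9 measured cases at both times, with Orc1 not above the filter value at day 2. Their median log2FC was -2.72 and -2.50 at day 2. The ribonucleotide reductase subunit Rrm2 (log2FC -3.94 and -3.81), the thymidine kinase Tk1 (log2FC -3.94 and -3.67) and the origin-licensing factor Cdc6 (log2FC -3.43 and -3.11) were among them. Cdc6 lay under the array median in myotubes (means 4.05 at day 2 and 3.70 at day 5), so the size of its fall is uncertain. Among E2F and DP factors themselves 3 of 10 fell at each time, E2f1 (log2FC -2.72 and -2.36) and E2f7 (log2FC -2.05 and -1.68) at both. Their median log2FC at day 2 was -0.62 and -0.30.

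Of the cyclins of later phases and of transcription 3 of 11 fell by day 2, the mitotic cyclins Ccna2 (log2FC -5.11 and -4.92) and Ccnb2 (log2FC -5.05 and -4.89) and Ccnf (log2FC -3.74 and -3.46). In myotubes Ccna2 (means 3.85 at day 2 and 3.51 at day 5) and Ccnb2 (3.79 and 3.70) lay under the array median. Ccnf did so at day 2 (4.23). Background was not measured, so the sizes of these falls are uncertain. At day 5, 4 fell, with Ccnl1 (log2FC -2.53 and -1.66), a cyclin linked to splicing, as the fourth. Of the other cyclin-dependent kinases 3 of 10 fell at each time, and Cdk1 (log2FC -4.21 and -3.96 at day 2), the mitotic kinase, had the largest change of the list. The list medians at day 2 were -0.55 and -0.40 for these cyclins and -0.73 and -0.57 for these kinases.

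Among genes that set the phosphorylation of the kinases 4 of 8 fell at both later times and 0 rose (median log2FC -1.09 and -0.91 at day 2). They were the phosphatases Cdc25b (log2FC -2.53 and -2.25), Cdc25c (log2FC -3.29 and -2.99) and Cdkn3 (log2FC -1.23 on both scales), and the inhibitory kinase Wee1 (log2FC -3.25 and -3.02). Cdc25c and Cdkn3 did not exceed the filter value in myotubes, with means of 2.81 and 2.92 at day 2, and passed the filter through cycling myoblasts alone, so the sizes of these 2 changes are uncertain. The subunits of the activating kinase differed little at day 2, with log2FC -0.07 and 0.02 for Cdk7, 0.28 and 0.49 for Ccnh and -0.83 and -0.52 for Mnat1. In the ubiquitin ligases that degrade these cyclins and their inhibitors 2 of 9 fell and 1 rose at each time (median log2FC 0.04 and 0.13 at day 2). Skp2 (log2FC -2.32 and -1.99) and its cofactor Cks1b (log2FC -3.26 and -3.02), which direct the inhibitor p27 to degradation, fell. Fbxo31 (log2FC 1.32 and 1.57 at day 2, 1.83 and 2.75 at day 5), an adaptor known to target cyclin D1, rose.

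The inhibitors and substrates of the kinases were not called in a common direction. Of 6 measured CDK inhibitors Cdkn1c (log2FC 1.44 and 1.66) rose and Cdkn2a (log2FC -1.31 and -1.04) fell at day 2, and none was called at day 5 by limma on both scales. The 4 not called at day 2 were higher on both scales then, each by less than 2-fold. The median log2FC of the 6 inhibitors was 0.09 and 0.34 at day 2 and -0.21 and 0.74 at day 5. Cdkn1a, whose probe set also names another gene, was not measured here. Of the pocket proteins, which the cyclin-dependent kinases phosphorylate, Rb1 (log2FC 1.13 and 1.38) rose by day 2 and fell again by day 5 against day 2 (log2FC -1.87 and -1.14). Rbl1 (log2FC -2.81 and -2.51) fell, and Rbl2 had log2FC 0.23 and 0.54.

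Of 10 mitogen response genes, which report the signals that induce D cyclins, 6 fell and 0 rose at day 2 (median log2FC -1.31 and -1.16). Fosl1 (log2FC -2.72 and -2.37), Etv4 (log2FC -1.75 and -1.42), Dusp6 (log2FC -1.43 and -1.30) and Spry2 (log2FC -1.45 and -1.26) were among them. Of the 4 not called, Egr1 (log2FC 0.88 and 1.13) and Fos (log2FC 0.11 and 0.39) were higher. The others, Mycn (log2FC -0.22 and -0.19) and Etv5 (log2FC -0.34 and -0.05), were lower. At day 5, 4 were lower, among them Fosl1 (log2FC -3.96 and -3.43) and Myc (log2FC -2.92 and -2.07), a transcription factor that promotes growth. Of the 6 not called at day 5, Mycn (log2FC 0.46 and 0.99) and Etv5 (log2FC 0.27 and 1.21) were higher on both scales. From day 2 to day 5, 2 of the 10 fell, Egr1 (log2FC -2.32 and -1.67) and Fosl1 (log2FC -1.24 and -1.06). Fosl1 lay under the array median at day 5 (mean 3.46), so the sizes of its changes to day 5 are uncertain.

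**Figure D4:**
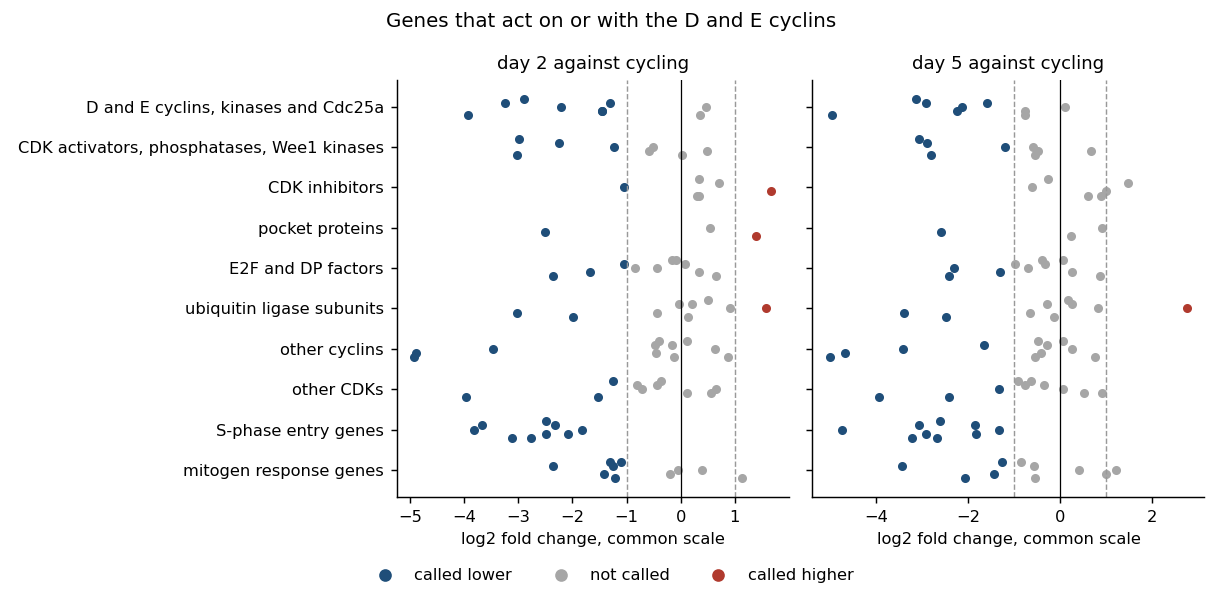
Log2 fold change on the common scale (x axis) of each measured gene in the set and in 9 related lists (y axis) at day 2 and day 5 against cycling myoblasts, each point a gene, blue where called lower and red where called higher on both scales, with dashed lines at 2-fold. All 9 measured S-phase entry genes are blue at both times, whereas most CDK inhibitors are grey.

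For each gene of the set, the genes with the most similar course were sought among 16573 other tested genes, by the root mean square distance over the 9 arrays on the common scale after each gene's own mean was subtracted. Nearest to Ccnd1 were Csf1 (distance 0.091) and Rrm2 (distance 0.097), and 14 genes lay within 0.25. Nearest to Ccne1 were Tcf19 (0.047) and Esco2 (0.057), and to Ccne2 the mitotic transcription factor Foxm1 (0.019) and Sdc3 (0.024). Cdk6 was nearest to Rad51ap1 (0.027) and the maintenance DNA methyltransferase Dnmt1 (0.048). Cdk4 was nearest to Tcf7l2 (0.014) and Mtmr11 (0.034), Cdc25a to Saal1 (0.014) and Sulf1 (0.023), and Ccnd2 to Mkx (0.040) and Sfrp2 (0.046).

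For Ccnd3, whose nearest were Msi2 (0.019) and Dnajb14 (0.026), 4836 genes lay within a distance of 0.25. For Cdk2, with Dpp6 (0.037) and Ggcx (0.038) nearest, 573 did, and for Cdc25a 786 did. The number was 57 for Ccne1, 94 for Ccne2, 198 for Cdk6, 308 for Ccnd2 and 360 for Cdk4. Msi2 was nearest to Ccnd3 on both scales, but for other genes the order depended on the scale. As deposited, Rrm2 was the nearest gene to Ccnd1 and Ggcx to Cdk2, while Dpp6 ranked 201 for Cdk2. The number within 0.25 depends on the size of a gene's change, as few genes changed as much as Ccnd1 and many changed little. These distances rest on 3 time points and describe likeness alone.

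Muscle markers differed between the labelled cell types. The 6 myotube markers all rose by day 2, Ckm among them (log2FC 4.83 and 5.12), and of 5 myoblast markers 2 fell, Pax7 (log2FC -2.15 and -1.87) and Myf5 (log2FC -1.55 and -1.43). Of the other myoblast markers Des rose (log2FC 1.27 and 1.48), while Myod1 had log2FC -0.96 and -0.93 and Cdh15 0.36 and 0.46. At day 5, 4 of the 5 myoblast markers were called lower than in cycling myoblasts, while Des was higher. Among the 4 were Myod1 (log2FC -2.04 and -1.43) and Cdh15 (log2FC -1.95 and -1.10). Of the 6 myotube markers 5 were called higher at day 5, and Myog (log2FC 0.51 and 1.25) was not called. Of all tested genes 12.3% were lower and 4.44% higher there. Myotube markers were already present in the cultures called cycling, where Mymk was at 9.67 and Myog at 9.15. The 6 fibroblast markers had a summed linear RMA value of 579 to 593 in cycling myoblasts, 154.9 at day 2 and 115 to 117 at day 5 as deposited. It was 480 to 484, 146 to 147 and 152 to 153 on the common scale. Col3a1 (log2FC -2.87 and -2.67 at day 2) was the only one of 4 tested fibroblast markers called at either time, with a mean level of 8.92 in cycling myoblasts against 5.35 for Col1a1, 5.03 for Thy1 and 4.29 for Pdgfra. At day 5 on the common scale log2FC was 0.56 for Pdgfra, 0.44 for Col1a1 and 0.36 for Thy1, while Dcn and Lum did not exceed the filter value on any of the 9 arrays. Col3a1 thus moved with the cyclins, whereas the other 3 were not called, and the part of other cells in the fall of the cyclins was not tested. All 4 endothelial markers, and 3 of 4 macrophage and 3 of 4 adipocyte markers, were under the array median on all 9 arrays.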

How the data were processed

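The authors deposited log2 values from RMA on Affymetrix arrays, run per replicate set, per the labels and the series design text. The version of RMA was not stated in the sources used here. Values for 35556 probe sets were read, and 0 value columns were left unused. Sorted values differed by at most 0.0251 on average between arrays of a time point and by at least 0.188 between time points. All 3 arrays agreed within 1e-06 in 47.9% (cycling), 60.2% (day 2) and 56.7% (day 5) of probe sets.

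The platform annotation named a single gene for 21789 probe sets, several for 1621 and none for 12146. A gene was tested where its highest-mean probe set exceeded the 30th percentile of the array on at least 3 arrays. limma 3.58.1 in R 4.3.3 (lmFit, eBayes) fitted a mean per time point to all 9 arrays, as deposited and after quantile normalization over all 9, with adjustment over 16582 genes. On simulated data with 16582 genes for day 2 against cycling myoblasts, 100% of 100 genes changed by a log2FC of 1.5 were recovered, and 100% of 100 changed by 3. The simulation drew its noise from the small replicate spread of these arrays, so such recovery was near certain. It fitted a single scale without separate normalization per time point, and so checks the fitting steps and not the rule on both scales. The genes and lists were chosen with earlier results of these data known. All 9 genes of the set are named, as are up to 4 called genes with the largest changes per list and comparison, the 2 nearest genes by course, and cell type markers. Cdk7, Ccnh, Mnat1, Rbl2, Orc1, Fos, Mycn and Etv5 were named after their values were seen. Array number limits the precision.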

Additional observations from a re-analysis of the deposited data

How the results depend on the processing

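Across 22 alternatives, 7 genes were called lower at day 2 except at a 4-fold limit, where 4 were. The share of all tested genes called lower was 2.34% at 4-fold and 7.05% to 15.4% under the other alternatives. At day 5 against cycling myoblasts 6 were called, with 8 as deposited alone, after median centring or at 1.5-fold, and 5 at 4-fold. The shares of all tested genes called lower in these 4 settings were 29.2%, 20.1%, 20.0% and 3.97%, against 12.3% under the main rule. For day 5 against day 2 the 2 calls became 4 as deposited alone, 3 after median centring or at 1.5-fold, 1 with limma's treat against 2-fold and 0 at 4-fold. The shares of all tested genes called lower there were 15.4%, 7.76%, 10.9%, 2.67% and 0.157%, against 3.67% under the main rule. Without a single array each, the count of the 9 genes was 1 to 2, beside 3.62% to 3.77% of all tested genes. It was 1 without day 2 replicate 2, where Ccnd1 lost its call. None of the 9 genes was called higher by limma under any of the 22. Of all tested genes 1.83% to 13.3% were called higher under them at day 2. The shares were 1.33% to 11.8% at day 5 against cycling myoblasts and 0.133% to 2.78% at day 5 against day 2. The direction turned for Ccnd3 at day 5 against cycling myoblasts on the common scale (log2FC 0.093). Between day 2 and day 5 it turned for Ccne1 on the common scale (0.32) and after median centring (0.045), for Cdk6 on the common scale (0.081), and for Ccnd2, whose value without a single array ranged from -0.020 to 0.051 and was negative without day 5 replicate 3. With the replicate number as a block, 7, 6 and 2 of the 9 genes were called lower. The shares of all tested genes called lower with it were 8.41%, 12.3% and 3.67%. The block changed no such count. Same-numbered arrays did not deviate together, with correlations between -0.038 and 0.11 over 9 pairs. Of the values of single genes 571 kept direction and call, 10 became called, 8 lost the call and 5 turned. Many of these settings could not move a log2FC. Each of the 9 genes had 1 probe set, so the choice or mean of probe sets could not. The filters, the block, the fit to the compared groups alone and the trend left log2FC as it was. Nor could leaving out an array from a time point outside the comparison move it. The 571 thus overstates the number of separate checks, as do the unchanged counts above. The cause of the turns and changed calls was not tested. Where arrays were left out, the common scale stayed that of all 9. Signal over background was not measured, which among the 9 genes limits Ccne2 most.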
